A study of Mus musculus with 9 samples.

Results

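Huntingtin and proteins grouped with it as binding partners are described here at the level of their translation in striatal neuronal cells. They were followed through 8 genes chosen by name: Htt, Hap1, Hip1, Hip1r, F8a, Rasd2, Zdhhc17 and Hspbap1. Whether the Hspbap1 product binds huntingtin was not tested, and it is not treated here as an established partner. All 8 had a row among the 36410 gene rows of the count table, and 7 of them passed the filter on low counts. Ribosome profiling, which sequences the pieces of mRNA that survive nuclease digestion inside a ribosome (ribosome-protected fragments, or footprints), was performed on 3 immortalized cell lines of the C57/BL6 strain, derived from embryos of wild-type and knock-in mice. The control line (STHdhQ7/Q7) carried 2 Htt alleles with 7 glutamines, the HD-het line (STHdhQ7/Q111) carried 1 allele with 7 and 1 with 111, and the HD-homo line (STHdhQ111/Q111) carried 2 alleles with 111. All 3 lines were immortalized and, before lysis, exposed to cycloheximide, which halts elongating ribosomes. Each line contributed 3 libraries from independent rounds of culture. Each genotype was represented by 1 line, so genotype and line cannot be told apart.

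Huntingtin is a very large scaffold protein whose N-terminus carries a run of glutamines, and expansion of that run causes Huntington disease, in which neurons of the striatum die early. Its partners work in several places: Hap1 joins it to the motors that carry vesicles along microtubules, the F8a product HAP40 folds with it into a stable complex, Hip1 and Hip1r act at clathrin-coated pits, Zdhhc17 attaches palmitate to it, and the Rasd2 product Rhes, a small GTPase enriched in striatum, binds the mutant form. Ribosome footprints count ribosomes on an mRNA, so a level reflects both the amount of mRNA and how densely it is translated. Matched mRNA measurements were not used here, and the counts per gene give neither the allele nor the position of a footprint.

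The start of the Htt coding sequence is shown because the lines differ by design within it. The stretch lies in the first exon, on the plus strand of chromosome 5, at chr5:34761907-34762011 of GRCm38.p6, and the capitals mark the glutamine codons of the reference allele, read 5′ to 3′.
Htt coding start: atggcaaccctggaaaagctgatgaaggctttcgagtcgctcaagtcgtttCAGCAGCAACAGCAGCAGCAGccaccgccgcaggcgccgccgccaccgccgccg
The reference run held 7 glutamine codons, of which 6 were CAG and 1 was CAA, after 17 codons. The same number of glutamines is given for the control alleles, whereas the knock-in alleles with 111 are not shown, since their sequence was in none of the files used. Of the 80 windows of 26 bases within this stretch, 0 occurred in the same orientation in a transcript of another gene. The same held for the whole coding sequence of each of the 8 genes, so reads of that length could be told apart from paralogs by sequence, Hip1 and Hip1r included, which shared 0 windows.

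Library totals ran from 22504543 to 41888701 counts, and replicates of a line correlated at 0.987 or more across genes, which are not independent replicates. Cell identity was checked with marker genes. Drd1 and Drd2, the dopamine receptors of striatal projection neurons, had 0 counts in all 9 libraries, which allows up to 0.142 CPM (counts per 1e6 counts of the library) at most in any library. The summed level of 9 projection neuron markers ran from 8.92 to 18.0 CPM in control libraries, 4.43 to 7.51 in those of HD-het and 7.15 to 17.9 in those of HD-homo, most of it Ppp1r1b. The 5 general neuron markers summed to 144.6 to 152.2 CPM in control, 130.7 to 146.2 in HD-het and 140.8 to 151.8 in HD-homo libraries. Nearly all of that was Map2 and Tubb3, while Rbfox3, Snap25 and Syt1 averaged 0.126 CPM or less in each line. Progenitor markers summed to between 9593 and 9857 CPM in control, 8988 and 9817 in HD-het and 6012 and 6543 in HD-homo libraries, most of it Vim, and their members differed in direction. Nes averaged 399.5 CPM in control, with HD-het at 1086 and HD-homo at 7.01, whereas Dlx2 averaged 9.25, 2.11 and 19.9 CPM in that order. The summed level of 5 mesenchymal markers ran from 6375 to 9112, from 25152 to 27331 and from 5569 to 7052 CPM. Other types were marked unevenly. The 5 markers of the oligodendrocyte lineage summed to 2.48 to 4.64 CPM in control and 113.8 to 181.8 in HD-homo cells, nearly all of it Pdgfra, while Olig2 and Mog were at 0 throughout. The 5 microglial markers reached 18.6 to 26.8 CPM in HD-het against 4.93 to 6.64 in control cells, mostly Tmem119, with Cx3cr1 at 0. The 5 astrocyte markers reached 11.7 to 13.95 CPM in HD-homo against 2.29 to 3.93 in control cells, mostly Slc1a3, with Aqp4 at 0. The 3 endothelial markers stayed at 0.535 CPM or less in sum, with Cldn5 at 0. The lines thus differed in more than Htt, and the part of these markers in the results that follow was not tested.

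In HD-het cells 3 of the 7 tested genes fell against control (Htt, Hap1 and Hspbap1) and 0 rose. Across all 12678 genes tested, 29.1% fell and 31% rose in that comparison. In HD-homo cells 4 fell (Htt, Hip1r, F8a and Zdhhc17) and 0 rose, against 22.3% and 23.3% of all genes. Between the mutant lines, 4 were lower in HD-homo cells (Htt, Hip1r, F8a and Zdhhc17) and 2 were higher (Hap1 and Hspbap1), against 32.8% and 34.6% of all genes. A difference of any kind among the 3 lines was found for 6 of 7, all but Hip1, where the share of all genes was 78.4%. With offsets for coding length alone it was found for 7 of 7. These shares are high, so each gene is described by its own size of change rather than by the number called. Htt was the only one of the 7 that was called lower in both mutant lines against control.

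**Figure D1:**
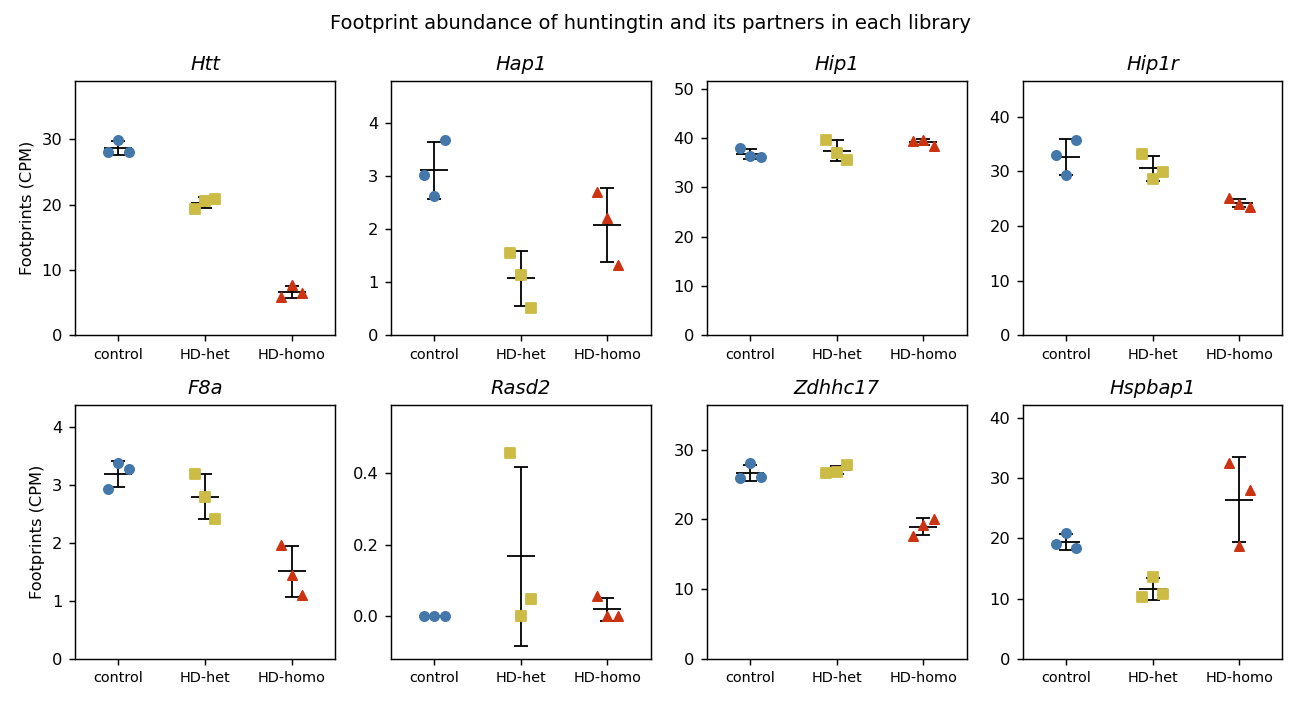
Footprint abundance in CPM (y axis) of the 8 genes in each line (x axis), 1 point per library, with a dash at the mean and bars of 1 SD (n = 3). The 3 HD-homo points of Htt lie between 5.78 and 7.68 CPM, below all HD-het points, which lie below all control points.

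Htt (chr5:34761721-34912534, plus strand, 67 coding exons) was lower in the HD-het line than in the control line and lowest in the HD-homo line. Its level was 28.1, 29.97 and 28.1 CPM in the control libraries, 19.4, 20.6 and 20.9 CPM in HD-het and 5.78, 7.68 and 6.39 CPM in HD-homo. The 3 lines did not overlap, and the gaps between them exceeded the spread within each. HD-het cells held 70.7% of the control level (95% CI 60.2 to 82.96, log2 fold change -0.50 ± 0.11 SE, adjusted p = 0.00168, edgeR quasi-likelihood test). HD-homo cells held 22.96% (95% CI 19.3 to 27.3, log2 fold change -2.12 ± 0.11 SE, adjusted p = 5.96e-08). In bulk libraries, fewer cells of a type and less RNA per cell cannot be told apart. Between the mutant lines the log2 fold change was -1.62 ± 0.11 (SE, adjusted p = 3.44e-07). Among all genes tested, 4.09% had a more negative fitted change than Htt in HD-homo cells and 20.6% in HD-het cells.

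Because the lines carry 0, 1 or 2 Q111 alleles, HD-het was also set against the midpoint of the other lines on the log2 scale. Htt in HD-het lay above that midpoint by 0.56 ± 0.092 (SE, adjusted p = 2.40e-04, edgeR), a call made for 33.9% of all genes in the upward and 32.5% in the downward direction. On the linear scale the midpoint was 17.7 CPM, and the HD-het libraries lay at 19.4 CPM or more. The steps were uneven, with the larger loss between HD-het and HD-homo cells. Their sizes depended on a correction for gene length. Htt has a longer coding sequence than 99.3% of the 12152 tested genes with a known coding length, and the longest 5% of these genes had median log2 fold changes against control of 0.32 (HD-het) and -0.22 (HD-homo). With offsets that removed a trend in coding length from each library, the log2 fall of Htt was -0.91 (HD-het) and -1.69 (HD-homo), both calls being retained, while its difference from the midpoint became -0.061 (adjusted p = 0.521). With offsets for GC content alone the difference from the midpoint was 0.55 (adjusted p = 1.84e-04).

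**Figure D2:**
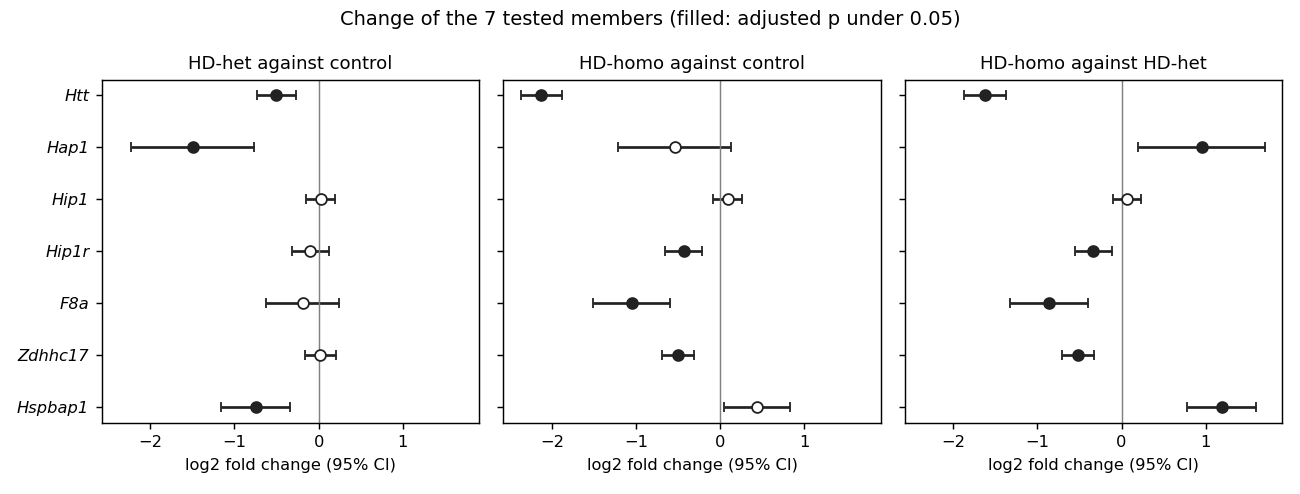
Log2 fold change (x axis) with its 95% confidence interval for the 7 tested genes (y axis) in each of the 3 comparisons, where filled points passed an adjusted p of 0.05. Htt is the only gene filled on the negative side in all 3 panels, at -0.50, -2.12 and -1.62, and Hip1 is open in all of them.

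Hap1 (chr11:100347327-100356982, minus strand, 12 coding exons), which tethers huntingtin to dynactin and to kinesin light chain, was low in all lines and lowest in HD-het cells. Its level was 3.02, 2.62 and 3.69 CPM in control, 1.56, 1.13 and 0.52 CPM in HD-het and 2.70, 2.22 and 1.33 CPM in HD-homo. All HD-het libraries lay below all control libraries, whereas HD-homo overlapped both. The log2 fold change was -1.49 ± 0.33 (SE, adjusted p = 0.00241, edgeR) in HD-het and -0.54 ± 0.31 (SE, adjusted p = 0.174) in HD-homo cells. The value in HD-homo cells was higher than in HD-het by 0.95 ± 0.34 (SE, adjusted p = 0.0282). That call rested on single libraries, since without HD-homo replicate 1 it was 0.71 (adjusted p = 0.121), and it was lost too without HD-homo replicate 2, HD-het replicate 2 or HD-het replicate 3 (adjusted p = 0.0522, 0.0687 and 0.0780). Counts were few, from 11 to 110 in a library.

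The wider transport machinery around Hap1 was taken as a list of 23 genes for motors, adaptors and cargoes, of which 20 were tested. In HD-het cells 9 rose and 2 fell, with a median log2 fold change of 0.27, where 31% and 29.1% of all genes did. In HD-homo cells 4 rose and 11 fell, with a median of -0.39, where 23.3% and 22.3% of all genes did. The median of all genes was 0.019 and 0.017. Among the longest 5% of coding sequences 49% rose in HD-het and 40.5% fell in HD-homo cells, and with offsets for coding length alone the list counts were 8 and 3 in HD-het, 4 and 9 in HD-homo. Kif5c, a neuronal kinesin heavy chain, averaged 22.99 ± 0.799 CPM in control and 2.34 ± 0.301 in HD-homo cells (SD, n = 3), a log2 fold change of -3.28 (adjusted p = 8.99e-09, edgeR). Sort1, the sorting receptor sortilin, fell by 3.03 in HD-homo cells (adjusted p = 2.54e-07), although HD-het cells held 32.8 CPM against 10.3 in control. Kalrn, which encodes the guanine nucleotide exchange factor kalirin, rose by 1.73 in HD-het cells (adjusted p = 6.25e-07).

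F8a (chrX:73228306-73230795, plus strand, 1 coding exon) encodes HAP40, which is stable in cells chiefly when bound to huntingtin. Its level was 2.94, 3.38 and 3.27 CPM in control, 3.19, 2.80 and 2.41 CPM in HD-het and 1.97, 1.45 and 1.11 CPM in HD-homo. Control and HD-het overlapped, and every HD-homo library was below both. HD-homo cells held 48.3% of the control level (95% CI 35.1 to 66.4, adjusted p = 0.00172, edgeR) and HD-het cells 87.8% (95% CI 64.95 to 118.6, adjusted p = 0.426). The decrease between the mutant lines was -0.86 ± 0.21 (SE, adjusted p = 0.00373) on the log2 scale. The gene is X-linked, and all 3 lines expressed Y-linked genes, with Ddx3y at 75.1 CPM or more on average. All 3 lines lacked Xist counts, but Xist is a non-coding RNA, so footprints cannot decide whether it was expressed.

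Without a correction for gene length, the footprints of the 2 partners of the huntingtin complex did not fall in proportion. The ratio of F8a to Htt footprints per coding kilobase was 0.854, 0.921 and 0.952 in control, 1.34, 1.11 and 0.941 in HD-het and 2.79, 1.54 and 1.42 in HD-homo libraries. HD-homo lay above the other lines, with the widest spread, whereas HD-het and control overlapped. A difference among the lines was found by an exact permutation test of the log2 ratio (2-sided, p = 0.00714, adjusted over 2 ratios p = 0.0143, 1680 arrangements). By the exact permutation test, a pair of lines cannot reach a p below 0.1 with 3 libraries each, and that was the value for HD-homo against each of the other lines (adjusted over 6 pairs p = 0.15). Htt is the far longer gene, and length trends were not removed from this ratio. With offsets for coding length alone, the log2 fold changes of F8a and Htt were -0.18 and -0.91 in HD-het cells. In HD-homo cells they were -1.10 and -1.69. Between the mutant lines they were -0.92 and -0.78, so there the excess of F8a over Htt in HD-homo cells was not seen. A list for RAB5 and early endosomes, where HAP40 acts with RAB5, held 11 tested genes. It included F8, which encodes coagulation factor VIII and is not a RAB5 or endosome gene. With F8 counted, 1 gene rose and 1 fell in HD-het cells (31% and 29.1% of all genes), with a median of -0.044. The gene that rose there was F8 itself (log2 fold change 1.40, adjusted p = 1.45e-04, edgeR). For HD-homo cells, 3 rose and 0 fell (23.3% and 22.3% of all genes), with a median of 0.13. F8 was 1 of these 3, at 1.18 (adjusted p = 7.74e-04, edgeR). Rab5c fell by 0.46 in HD-het cells (adjusted p = 2.00e-04), and Rabgef1 and Rabep1, an exchange factor and an effector of RAB5, rose by 0.35 and 0.28 in HD-homo cells (adjusted p = 0.0203 and 0.0178).

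**Figure D3:**
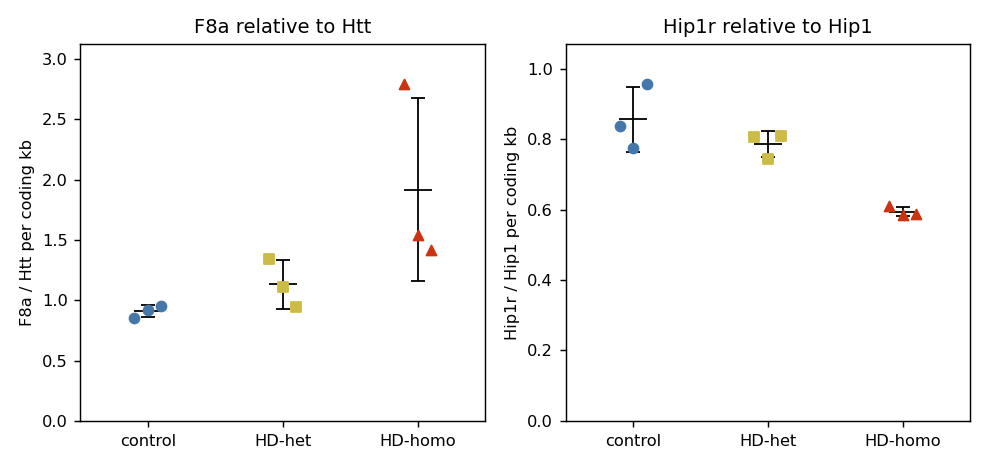
Ratio per coding kilobase (y axis) of F8a to Htt and of Hip1r to Hip1 in each library of the 3 lines (x axis), with a dash at the mean and bars of 1 SD (n = 3). The F8a ratio averages 0.909 in control and 1.92 in HD-homo cells, and the Hip1r ratio 0.856 and 0.594.

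Hip1 and Hip1r are paralogs that bind clathrin and, through a C-terminal domain, actin. Hip1 (chr5:135406496-135545323, minus strand, 31 coding exons) was not called in any comparison between lines, at 37.96, 36.4 and 36.1 CPM in control, 39.7, 37.1 and 35.6 CPM in HD-het and 39.5, 39.6 and 38.5 CPM in HD-homo. The HD-homo libraries all lay above the control libraries, and the change did not pass the test (log2 fold change 0.091 ± 0.078 SE, 95% CI -0.080 to 0.26, adjusted p = 0.369, edgeR). In HD-het cells the value was 0.025 ± 0.078 (SE, adjusted p = 0.798), with a 95% CI of -0.15 to 0.20. When GC content and transcript length were offset, Hip1 rose in HD-homo cells by 0.33 against control (adjusted p = 0.00390) and by 0.51 against HD-het (adjusted p = 1.19e-04), and with coding length alone by 0.31 against HD-het (adjusted p = 0.00446). Both genes overlap others in the annotation (a long non-coding RNA for Hip1, a further gene model and a microRNA for Hip1r), whose footprints could be counted with theirs.

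Hip1r (chr5:123973602-124003215, plus strand, 32 coding exons) was lower in HD-homo cells. Its level was 33.0, 29.3 and 35.8 CPM in control, 33.2, 28.6 and 29.9 CPM in HD-het and 25.0, 24.0 and 23.5 CPM in HD-homo. The HD-homo libraries were below all others, and the other lines overlapped. HD-homo cells held 74.1% of the control level (95% CI 63.7 to 86.1, adjusted p = 0.00416, edgeR) and 79.2% of the HD-het level (95% CI 68.1 to 92.1, adjusted p = 0.0105). The HD-het value against control was -0.097 ± 0.098 (SE, adjusted p = 0.414). When GC content and transcript length were offset, the fall in HD-homo cells was -0.21 (adjusted p = 0.0869) against control, and the difference between the mutant lines became 0.015 (adjusted p = 0.897). Total counts as the scale gave -0.26 for the latter (adjusted p = 0.0539).

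The ratio of Hip1r to Hip1 needs no scaling between libraries. Per coding kilobase it was 0.838, 0.775 and 0.955 in control, 0.805, 0.744 and 0.810 in HD-het and 0.610, 0.585 and 0.588 in HD-homo. The HD-homo libraries fell together below the other lines, which overlapped. The exact permutation test among the lines gave p = 0.0143 (adjusted p = 0.0143). A list of 23 genes covered the clathrin coat, its adaptors and other proteins around HIP1 and HIP1R, such as Cttn and Ift57, and all were tested. Of these, 6 rose and 6 fell in HD-het cells, and 4 rose and 5 fell in HD-homo cells, with medians of 0.0079 and -0.047. These counts were near the shares of all genes, 31% and 29.1% in HD-het and 23.3% and 22.3% in HD-homo cells. Epn3, an epsin adaptor, averaged 7.30 CPM in control, with HD-het at 1.55 and HD-homo at 17.1. Dnm1, the dynamin of synaptic endocytosis, rose from 36.3 ± 1.81 to 76.1 ± 10.3 CPM (SD, n = 3, adjusted p = 1.65e-05 by edgeR) in HD-homo cells. Itsn1, an endocytic scaffold, rose by 0.81 in HD-het cells (adjusted p = 4.42e-04).

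Zdhhc17 (chr10:110941779-111010066, minus strand, 17 coding exons), also called HIP14, is the palmitoyltransferase that modifies huntingtin. Its level was 25.97, 28.0 and 26.0 CPM in control, 26.7, 26.8 and 27.8 CPM in HD-het and 17.6, 19.2 and 20.0 CPM in HD-homo. The first 2 lines overlapped, and HD-homo was below both. HD-homo cells held 70.9% of the control level (95% CI 62.2 to 80.8, adjusted p = 6.94e-04, edgeR) and 69.9% of the HD-het level (95% CI 61.3 to 79.7, adjusted p = 2.64e-04). HD-het cells differed from control by 0.020 ± 0.085 (SE, adjusted p = 0.849), with a 95% CI of -0.17 to 0.21, and lay above the log2 midpoint by 0.27 ± 0.074 (SE, adjusted p = 0.00720). The midpoint difference was 0.097 (adjusted p = 0.235) when GC content and transcript length were offset. Of 23 other palmitoyltransferase genes of the DHHC family, 18 were tested and 3 had 0 counts in every library. In HD-het cells 10 rose and 2 fell (median 0.42), against 31% and 29.1% of all genes. In HD-homo cells 1 rose and 4 fell (median -0.27), against 23.3% and 22.3%. Zdhhc16 fell by 1.45 in HD-homo cells (adjusted p = 5.72e-05), from 32.7 to 11.9 CPM. Zdhhc20 rose by 0.79 in HD-homo and 0.42 in HD-het cells (adjusted p = 3.41e-04 and 0.0130). Zdhhc5 rose by 0.66 in HD-het cells (adjusted p = 6.54e-04).

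Rasd2 (chr8:75213944-75224113, plus strand, 2 coding exons) was close to absent. It had 0 counts in each control library, 12, 0 and 1 in HD-het and 2, 0 and 0 in HD-homo. A count of 0 allows up to 3 counts, or 0.0714 to 0.142 CPM depending on the library, for counting error only. The gene did not pass the filter, and a fold change is not given. Without a filter it was called in HD-het against control (adjusted p = 0.0437, edgeR), a call that was lost without HD-het replicate 1 (adjusted p = 0.411). Of 16 genes for Rhes relatives and for its mTOR and SUMO partners, 14 were tested, of which 3 rose and 7 fell in HD-het cells (median -0.27) and 1 rose and 4 fell in HD-homo cells (median -0.14). The shares of all genes were 31% and 29.1% in the former, 23.3% and 22.3% in the latter. Sumo3 and Sumo2, ubiquitin-like modifiers, fell by 0.92 and 0.68 in HD-het cells (adjusted p = 6.35e-06 and 2.98e-04). Acbd3, a Golgi protein that binds Rhes, rose by 0.69 (adjusted p = 5.41e-05).

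Hspbap1 (chr16:35769726-35828462, plus strand, 8 coding exons), named for the binding of its product to the small heat shock protein HSPB1, fell in HD-het cells and was most abundant on average in HD-homo cells. Its level was 19.1, 20.9 and 18.4 CPM in control, 10.3, 13.6 and 10.7 CPM in HD-het and 32.5, 18.7 and 28.1 CPM in HD-homo. HD-het libraries were below all others, and HD-homo replicate 2 lay within the control range. The log2 fold change was -0.75 ± 0.19 (SE, adjusted p = 0.00460, edgeR) in HD-het cells and 0.44 ± 0.18 (SE, adjusted p = 0.0651) in HD-homo cells. Without HD-homo replicate 2 the latter was 0.64 (adjusted p = 0.00250). HD-homo exceeded HD-het by 1.19 ± 0.19 (SE, adjusted p = 1.55e-04), and HD-het lay below the log2 midpoint by -0.97 ± 0.17 (SE, adjusted p = 3.22e-04). Hap1 was the only other gene of the 7 called below its midpoint (-1.22 ± 0.30 SE, adjusted p = 0.00395).

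Beyond the 8 genes, 32 genes whose products are known to bind or modify huntingtin were all tested. In HD-het cells 13 rose and 7 fell (median 0.17), beside 31% and 29.1% of all genes. In HD-homo cells 8 rose and 6 fell (median 0.0069), near the 23.3% and 22.3% of all genes. Tgm2, a transglutaminase, rose from 1.28 ± 0.296 CPM in control to 11.6 ± 2.55 in HD-het cells (SD, n = 3, adjusted p = 1.04e-06, edgeR). It rose less in HD-homo cells, to 2.80 ± 0.530 CPM (adjusted p = 0.00346). Dlg4, the postsynaptic scaffold PSD-95, fell by 1.57 in HD-homo and 1.09 in HD-het cells (adjusted p = 2.96e-06 and 3.56e-05). Optn, the autophagy receptor optineurin, rose by 1.22 in HD-homo and 1.16 in HD-het cells (adjusted p = 2.06e-05 and 2.45e-05). Of 16 markers of striatal neurons only 6 were tested. Among these, 2 rose and 1 fell in HD-het cells (31% and 29.1% of all genes). In HD-homo cells 3 rose and 0 fell (23.3% and 22.3%). Foxp1, a forkhead transcription factor, rose by 0.77 in HD-homo and 0.36 in HD-het cells (adjusted p = 4.91e-05 and 0.00566). Ppp1r1b, which encodes DARPP-32, fell by 1.22 in HD-het cells (adjusted p = 0.0400).

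Divided by coding length, the genes formed an upper and a lower group in every line. In control cells Zdhhc17 (14.0 ± 0.615 CPM per coding kilobase), Hspbap1 (13.4 ± 0.897), Hip1 (11.9 ± 0.322) and Hip1r (10.2 ± 1.03, all SD, n = 3) stood above Htt (3.07 ± 0.114), F8a (2.79 ± 0.199) and Hap1 (1.65 ± 0.286). The step from Hip1r to Htt was 3.32-fold, and the ranges of Zdhhc17 and Hspbap1 overlapped. In HD-het cells F8a (2.44 ± 0.339) and Htt (2.17 ± 0.0874) overlapped. In HD-homo cells Htt was the lowest of the 7 tested genes at 0.707 ± 0.104, overlapping Hap1 at 1.10 ± 0.368, and Hspbap1 was highest at 18.2 ± 4.84 CPM per coding kilobase.

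**Figure D4:**
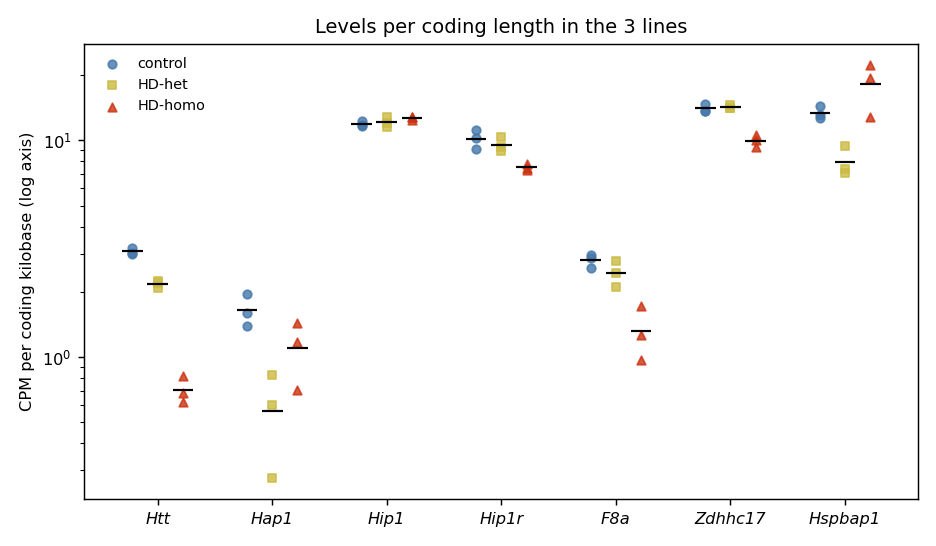
Level in CPM per coding kilobase (y axis, log scale) of the 7 tested genes (x axis) in the 3 lines, 1 point per library with a dash at the mean. Htt moves from 3.07 in control to 0.707 in HD-homo cells, while Hip1 stays between 11.5 and 12.8 in all libraries.

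Genes whose levels followed Htt most closely over the 9 libraries were found by Pearson correlation of log2(CPM + 0.5) among 7725 genes with a mean of 10 CPM or more, as a description, since replicates of a line share their source. The 5 closest were Pik3c2a (0.996), Ets2 (0.996), Crabp1 (0.991), Pkp2 (0.991) and Cers4 (0.990), and 115 genes exceeded 0.95. Crabp1, a retinoic acid binding protein, went from 496.4 CPM (control) to 93.5 (HD-het) and 1.06 (HD-homo), and Pik3c2a, a phosphoinositide kinase of clathrin-coated pits, from 112.3 to 88.2 and 44.1. Among the other tested genes of the 8, the correlation with Htt was 0.947 for Zdhhc17, 0.89 for F8a, 0.874 for Hip1r, 0.0865 for Hap1, -0.574 for Hspbap1 and -0.677 for Hip1.

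The neighbours of Htt on chromosome 5 were read from the same fit. Of 15 protein-coding genes that start within 500 kb, 12 were tested. In HD-het cells 7 rose and 2 fell, and in HD-homo cells 4 rose and 2 fell, with median log2 fold changes of 0.47 and 0.067. Of all genes, 31% rose and 29.1% fell in HD-het and 23.3% rose and 22.3% fell in HD-homo cells. Only Dok7, an adaptor of the muscle synapse that starts 294.8 kb downstream, fell in both, from 5.53 ± 0.401 CPM in control to 3.05 ± 0.612 with 1 and 0.427 ± 0.0818 with 2 Q111 alleles (SD, n = 3, adjusted p = 0.00129 and 1.91e-07 by edgeR). Mfsd10, a membrane transporter gene that starts 124.5 kb upstream, had 1, 5 and 1 counts in control, 417, 547 and 495 in HD-het and 1681, 878 and 908 in HD-homo libraries, or 0.0649 CPM on average in control against 18.1 and 40.2. It rose in both mutant lines (adjusted p = 3.33e-08 and 4.11e-09), while the size of its fold change rests on few control counts. Rgs12 and Lrpap1, on the other side of Htt, rose by 1.10 and 1.48 in HD-het cells (adjusted p = 1.19e-05 and 1.81e-05), with values of 0.013 and 0.12 in HD-homo cells (adjusted p = 0.939 and 0.575). Sh3bp2 fell by 0.94 in HD-homo cells (adjusted p = 3.91e-05).

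**Figure D5:**
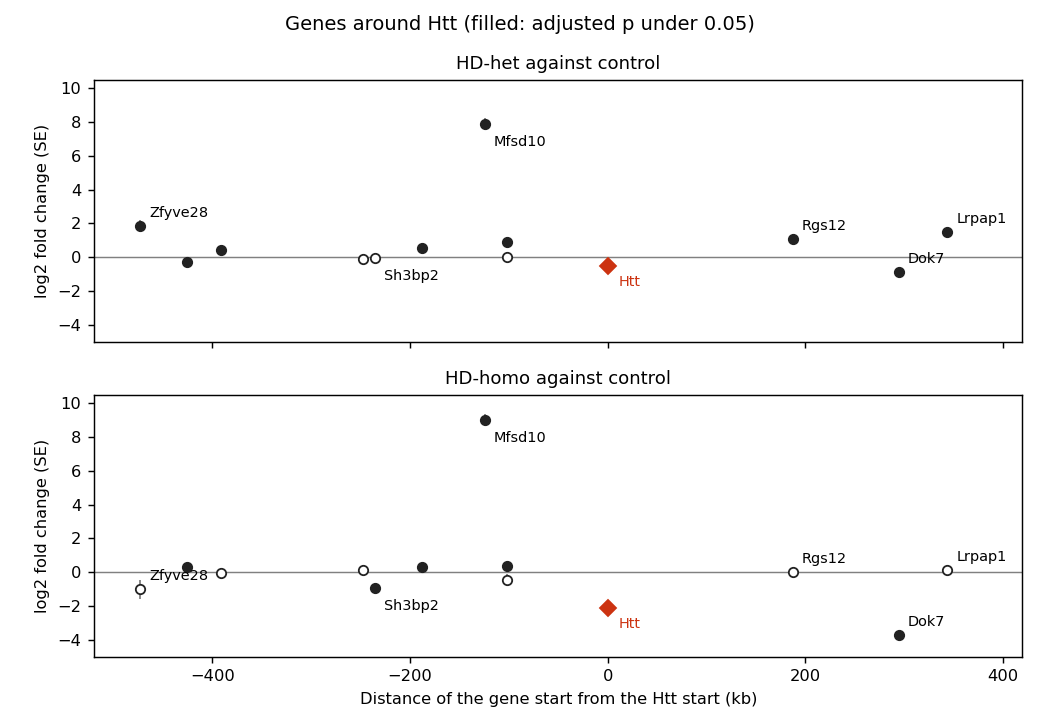
Log2 fold change with its SE (y axis) of the 12 tested neighbours against the distance of their start from that of Htt in kb (x axis), where filled points passed an adjusted p of 0.05 and the diamond is Htt. Dok7 is the one neighbour below 0 and filled in both panels, and Mfsd10 stands at 7.85 and 9.02, values set against 1 to 5 control counts.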

How the data were processed

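The authors deposited raw counts of footprints per gene symbol, 1 column per library, without normalization or pooling. Per the labels, reads were handled with cutadapt and Bowtie 1.0.1 on mm10, and the counting program, annotation and use of strand are not given in the sources used here. Counts were tested with edgeR 4.0.16 (limma 3.58.1, R 4.3.3): TMM factors, the filterByExpr filter, line means as the only terms, all 9 libraries, a quasi-likelihood F test and Benjamini-Hochberg adjustment over 12678 genes, with 0.05 as the threshold. CPM was divided by TMM-scaled totals, and an SE was derived from log2 fold change and F. Scripts were tested on simulated data. Coordinates, coding lengths and sequence came from RefSeq on GRCm38.p6, and transcripts from GENCODE. P-values measure the spread between rounds of culture of 1 line.

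The members and lists were chosen with earlier results of these data known. Named were all 8 members, up to 3 genes per list by size of change with at least 10 CPM in the higher group, the 5 profiles most like Htt, and neighbours of Htt that passed the filter. Alternatives were RLE factors, total counts, DESeq2 1.42.0, no filter, a filter of 10 counts in each library, a fit restricted to the 6 libraries of both lines, a block for the replicate number, stricter thresholds (0.01, or 2-fold), offsets for GC content and transcript length (loess, span 0.5), and leaving out each library. Offsets from the coding sequence, together and separately for GC content and length, were chosen after seeing the data. Same-numbered libraries of different lines deviated together in 1 of 9 pairs (correlation over 0.1, range -0.356 to 0.175), so the numbers were not taken to pair the samples.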

Additional observations from a re-analysis of the deposited data

How the results depend on the processing

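The 3 Htt comparisons between lines kept direction and call in all 20 alternatives each (-0.91 to -0.47 in HD-het, -2.24 to -1.68 in HD-homo, -1.74 to -0.77 between them, log2). Its difference from the midpoint, 0.56, became 0.054 when GC content and transcript length were offset (adjusted p = 0.596), -0.072 with offsets for GC content and coding length (adjusted p = 0.422) and -0.061 with coding length alone. Over all member changes, 501 of 546 alternatives kept direction and side of the threshold. Signs reversed for Htt (above), for Hip1r between mutant lines (0.015 with transcript offsets, a call lost) and otherwise for values not past the threshold. For Hip1 in HD-het they were -0.024 (total counts), -0.011 (no filter), -0.18, -0.12 and -0.12 (transcript offsets, coding offsets, length alone), and -0.033 to 0.042 when each library was left out. For Zdhhc17 in HD-het they were -0.031, -0.015, -0.15, -0.070, -0.041 and, with GC content alone, -0.0089, and -0.016 to 0.055 over left-out libraries. Hip1 gained calls against the midpoint with transcript offsets (-0.34, adjusted p = 7.94e-04), coding offsets (-0.22, adjusted p = 0.0103) and length alone (-0.22, adjusted p = 0.0151), and between mutant lines (0.51, 0.33 and 0.31). Against the midpoint it also gave 0.0073 with 10 counts in every library and -0.070 to 0.0047 over left-out libraries, and Hip1r -0.12, -0.087 and -0.089 with transcript offsets, coding offsets and length alone.

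Members lower by 2-fold or more numbered 1 in HD-het, 2 in HD-homo and 1 between mutant lines, and 1 was higher between them. With an adjusted p under 0.01 instead, 1 was higher between mutant lines. The shares of all genes at these 2 stricter thresholds were not taken, so these counts are not set against them. In HD-homo 1 member was higher with total counts and both combined offsets. Over left-out libraries that count ran from 0 to 1, and the count higher between mutant lines from 1 to 2. Neighbours lower in HD-het numbered 1 rather than 2 with coding offsets or length alone. Above the midpoint were 0 members with transcript offsets and 1 with length alone. The replicate block gave -0.50 and -2.12 for Htt and changed no member's call.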
